A study of Mus musculus with 54 samples.

Results

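The polycomb mark H3K27me3 (trimethylation of histone H3 at lysine 27) was compared between cultured B-cell progenitors with and without the transcription factor Ebf1. The regions described here are 275 of 3760 table rows at which the H3K27me3 value in Ebf1-KO cells plus 5, divided by the value in wild-type (Wt) cells plus 5, was at least 2. Values are tags per 10000000 sequenced tags, not divided by region length, and chromosome Y was left out. After repeated rows were merged, they were 273 of 3638 distinct regions, or 7.5% of them, next to 200 of 1660 nearest genes. The opposite change, a ratio of at least 2 in favour of Wt, was found at 2 regions, or 0.055%. This imbalance depends on the 5 tags added. With 1 tag added, 615 regions (16.9%) were at least 2-fold higher in Ebf1-KO and 170 (4.67%) at least 2-fold lower. The 273 regions are called the H3K27me3-gaining regions below. They were chosen on the Ebf1-KO over Wt H3K27me3 ratio, so that ratio is given as a description only. Gain, loss, rise and fall below name differences in size between columns, none of them tested.

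All regions were accessible in Wt cells and lay near genes that the authors' tables list as Wt-enriched. The cells were labelled ProB, came from the fetal liver of C57BL6/J mice, and grew with interleukin-7, FLT3 ligand and KIT ligand on a layer of OP9 stroma. The groups used here were Wt, Ebf1-KO and E2A-KO cells (E2A is the protein of Tcf3), and Ebf1-KO cells carrying a pMiG-Ebf1ER vector, sampled at 0, 6, 24 and 72 h of 4OHT, the ligand that activates the fused Ebf1. Ebf1 and Pax5 peaks, accessible regions and promoter-anchored contacts came from the Abelson-transformed line 230-238, a single progenitor B cell line, so binding in the fetal liver cells was not measured. ATAC, H3K4me3 and H3K27me3 values were each 1 pooled column per group, and H3K4me2, H3K27ac (by CUT&RUN), RNA polymerase II (PolII), BRG1 and EP300 had 1 library per genotype. There was thus no spread between replicates to test against, and every interval below covers counting error or the spread over regions only. The antibody field of the Wt EP300 sample names PolII with a question mark, so EP300 values are those of the library labelled EP300.

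H3K27me3 is written by polycomb repressive complex 2, whose catalytic subunit is Ezh2, and is read by polycomb repressive complex 1. It is found on silent developmental genes, above all on CpG-rich promoters, and the same lysine cannot be acetylated and trimethylated at once. H3K27ac marks active promoters and enhancers, H3K4me3 marks promoters, H3K4me2 marks both, BRG1 is the ATPase of the SWI/SNF remodelling complex and EP300 is an acetyltransferase found at enhancers. Ebf1 acts with E2A and Foxo1 upstream of Pax5 in commitment to the B lineage, and without it cultured progenitors do not become pro-B cells. In bulk chromatin, a mark on fewer cells and less of a mark per cell cannot be told apart, nor can 2 marks on the same allele be told from 2 marks in different cells.

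To show the base composition by which promoters are grouped below, upstream sequences of 7 genes are printed. Each is the 250 bases before the RefSeq start (GRCm38.p6), 5′ to 3′ on the gene's strand, with each CG pair in capitals. The genes were chosen after values were seen. Foxo1 (chr3:52268087-52268336, plus strand), Hes5 (chr4:154960673-154960922, plus), Myh10 (chr11:68691665-68691914, plus) and Pax5 (chr4:44710695-44710944, minus) are CpG-rich promoters in gaining regions. Il5ra (chr6:106749038-106749287, minus) and Trem1 (chr17:48232489-48232738, plus) are CpG-poor promoters chosen from gaining regions with small gains; CpG-poor starts with large gains occurred too, as at Gpm6a. Cd79a (chr7:24897247-24897496, plus) is a CpG-poor promoter that lost its active marks without gaining H3K27me3.
Foxo1: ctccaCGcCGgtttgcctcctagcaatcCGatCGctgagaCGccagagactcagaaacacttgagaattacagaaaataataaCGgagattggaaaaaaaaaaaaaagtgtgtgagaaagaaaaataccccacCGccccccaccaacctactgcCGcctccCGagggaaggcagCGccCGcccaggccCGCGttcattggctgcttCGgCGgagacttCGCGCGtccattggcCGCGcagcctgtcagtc
Hes5: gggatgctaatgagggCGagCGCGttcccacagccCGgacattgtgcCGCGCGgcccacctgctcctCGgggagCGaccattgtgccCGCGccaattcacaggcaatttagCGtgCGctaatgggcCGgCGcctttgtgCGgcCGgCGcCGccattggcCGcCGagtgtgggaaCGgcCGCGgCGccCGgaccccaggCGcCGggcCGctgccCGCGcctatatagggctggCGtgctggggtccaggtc
Myh10: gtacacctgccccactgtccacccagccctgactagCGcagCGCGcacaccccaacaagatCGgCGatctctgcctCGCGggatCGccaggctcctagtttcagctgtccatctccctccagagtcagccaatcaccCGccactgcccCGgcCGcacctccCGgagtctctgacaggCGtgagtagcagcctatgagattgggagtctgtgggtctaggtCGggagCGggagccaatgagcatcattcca
Pax5: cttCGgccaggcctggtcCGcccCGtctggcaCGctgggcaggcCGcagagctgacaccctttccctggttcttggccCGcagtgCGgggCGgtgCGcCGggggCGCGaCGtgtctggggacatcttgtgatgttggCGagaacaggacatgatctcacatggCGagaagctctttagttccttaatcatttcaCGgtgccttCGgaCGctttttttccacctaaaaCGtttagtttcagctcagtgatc
Il5ra: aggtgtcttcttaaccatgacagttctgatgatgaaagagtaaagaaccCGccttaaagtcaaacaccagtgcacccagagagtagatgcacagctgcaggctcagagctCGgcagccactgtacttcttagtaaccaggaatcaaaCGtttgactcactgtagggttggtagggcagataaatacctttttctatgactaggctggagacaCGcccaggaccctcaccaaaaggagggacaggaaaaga
Trem1: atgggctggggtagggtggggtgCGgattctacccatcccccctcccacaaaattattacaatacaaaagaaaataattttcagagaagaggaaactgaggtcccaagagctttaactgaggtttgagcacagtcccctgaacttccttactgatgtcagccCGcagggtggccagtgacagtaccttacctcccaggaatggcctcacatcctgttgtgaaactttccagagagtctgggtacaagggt
Cd79a: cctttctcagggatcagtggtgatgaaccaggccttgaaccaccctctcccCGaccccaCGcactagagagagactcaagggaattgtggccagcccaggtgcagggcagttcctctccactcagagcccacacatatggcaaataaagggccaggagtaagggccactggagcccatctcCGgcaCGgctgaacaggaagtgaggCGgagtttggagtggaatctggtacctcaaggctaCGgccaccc
The printed stretches held 20 CG pairs at Foxo1, 32 at Hes5, 15 at Myh10 and 19 at Pax5, but 4 at Il5ra, 2 at Trem1 and 6 at Cd79a.

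In the gaining regions the median H3K27me3 value was 1.65 in Wt and 14.8 in Ebf1-KO cells, with an Ebf1-KO interquartile range of 10.0 to 25.1. In the 3365 other regions the medians were 0.86 and 0.65. Most gains therefore started from a nearly unmarked region, although 43 gaining regions already held at least 5 tags in Wt and 15 held at least 10. The median ratio after adding 5 tags was 2.66 and the highest was 13.6; 106 regions reached 3 and 31 reached 5. Gaining regions were longer, with a median of 1028 bases against 729 in the others, and longer regions collect more tags. Per kilobase, the median Ebf1-KO value was 17.0 in gaining and 0.879 in other regions.

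**Figure D1:**
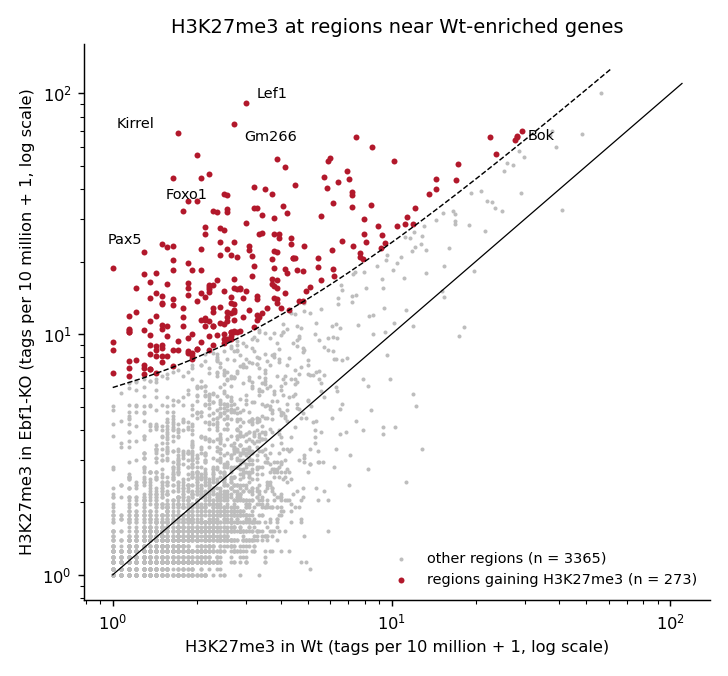
H3K27me3 in Wt (horizontal) and Ebf1-KO cells (vertical), in tags per 10000000 plus 1 on log axes, for 273 gaining (red) and 3365 other regions (grey). The solid line marks equal values and the dashed line the ratio of 2 after adding 5 tags. Most red points lie at low Wt values, with Lef1 highest at 90.1 tags in Ebf1-KO, while Bok is among the few that were already marked in Wt.

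The strongest gain lay 3.4 kb upstream of Lef1, an HMG-box factor of the Wnt pathway that early lymphoid progenitors express, at chr3:131106026-131107747 (mm10). It held 2.01 tags of H3K27me3 in Wt (exact Poisson 95% interval 1.10 to 3.36) and 90.1 in Ebf1-KO cells (83.5 to 97.0). By the ratio that defines the gain, the first exon of Kirrel, which encodes an adhesion protein of the nephrin family, came next with 0.72 and 67.5 tags, followed by an exonic region of Gm266 with 1.72 and 73.4. An intron of Crhbp, whose protein binds corticotropin-releasing hormone, went from 1.00 to 54.6 tags. Regions of Clgn, a chaperone known from testis, and Ust, a uronyl sulfotransferase, held 52.3 and 48.4 tags in Ebf1-KO. The Ust region has a RefSeq start inside. The promoters of Ikzf3 (Aiolos, a lymphoid zinc finger factor) and Myh10 (a non-muscle myosin heavy chain) went from 1.22 to 45.2 and from 0.64 to 43.4 tags. At the other end, Bok, a gene of the Bcl2 family, was already marked in Wt, with 27.2 tags, and reached 65.5.

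The 4 regions nearest to the threshold on each side carried few tags. Just inside it lay the Trem1 promoter with 0.43 and 5.89 tags in Wt and Ebf1-KO, an intron of Tmem163 with 3.29 and 11.7, 2210404O09Rik with 3.80 and 12.7, and Fam69c with 0.93 and 6.92. Just outside it lay Fam167a with 1.15 and 7.25 tags, Zhx2 with 0.14 and 5.24, a second region of Klhl14 with 0.21 and 5.37, and Agpat9 with 0.29 and 5.50.

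In the gaining regions the other marks were lower in Ebf1-KO than in Wt cells. Median H3K27ac was 15.3 tags in Wt and 3.52 in Ebf1-KO, and median PolII was 18.0 and 3.42. Median H3K4me3 went from 40.2 to 10.9 and median H3K4me2 from 44.2 to 12.0. In the 3365 other regions the Wt and Ebf1-KO medians were 12.9 and 10.7 for H3K4me3 and 20.4 and 12.2 for H3K4me2. For these 2 marks the Ebf1-KO levels were thus alike, and gaining regions differed by a higher level in Wt. In other regions H3K27ac had medians of 15.5 and 8.33, and PolII of 13.3 and 7.18. On log2 of value plus 1, the scale of all ratios that follow, the median Ebf1-KO over Wt ratio was -1.67 for H3K27ac (95% interval over regions -1.86 to -1.43) and -1.84 for PolII (-2.08 to -1.63). It was -1.20 for H3K4me3 (-1.45 to -0.99) and -1.23 for H3K4me2 (-1.64 to -0.81). Over all 3638 regions the medians were -0.70, -0.67, 0.03 and -0.17 in the same order, so H3K27ac and PolII were already shifted in these tables as a whole. With TMM scaling, which centres most regions on 0, those medians of all regions became -0.02 and -0.04, and the gaining regions stood at -0.99 for H3K27ac and -1.25 for PolII.

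At least 2-fold lower H3K27ac was found in 211 of the 273 regions (77.3%), against 37.4% of all regions. PolII was that much lower in 206 (75.5%) against 39.7%, H3K4me3 in 153 (56.0%) against 25.1%, and H3K4me2 in 148 (54.2%) against 30.2%. Under TMM the shares for gaining and all regions were 49.8% and 19.8% for H3K27ac and 56.4% and 25.6% for PolII. At least 2-fold higher H3K27ac occurred in 0 gaining regions against 1.15% of all, and higher PolII in 2 against 7.04%. H3K4me3 was higher in 11 against 15.4%. Only for H3K4me2 was the share with a rise, 21 regions or 7.69%, near that of all regions, 7.59%. All 4 were at least 2-fold lower in 95 gaining regions (34.8%) against 13.7% of all, and none was in 20 (7.33%) against 42.3%.

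**Figure D2:**
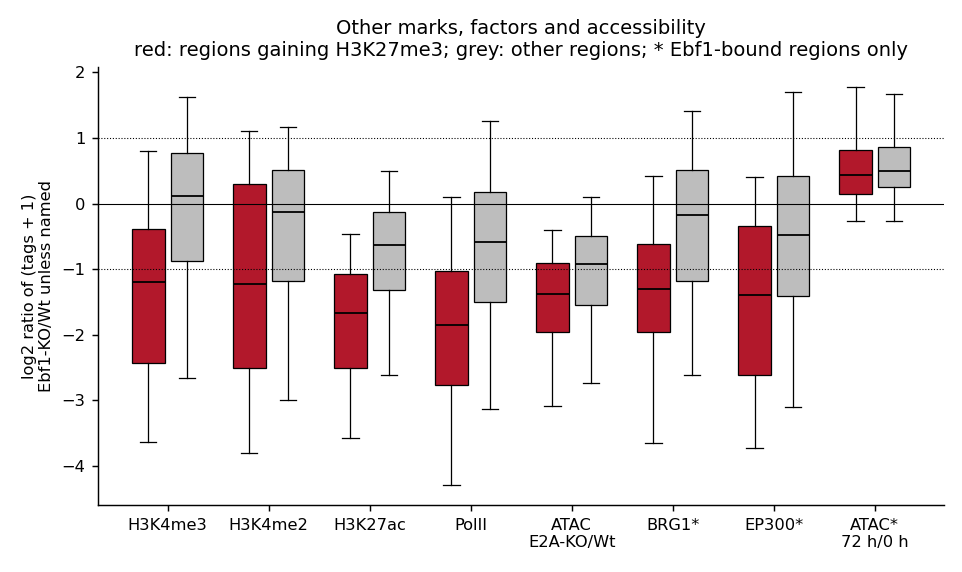
Log2 ratios (value plus 1) of each mark, factor or accessibility contrast in H3K27me3-gaining (red) and other regions (grey). Boxes give quartiles with the median, whiskers the 5th to 95th percentile, dotted lines 2-fold changes; BRG1, EP300 and the 4OHT course cover Ebf1-bound regions. Red boxes sit lower for the marks, factors and E2A-KO accessibility, and the medians of 72 h over 0 h of 4OHT are close, at 0.43 and 0.50.

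Read the other way, the share of regions that gained H3K27me3 rose as the loss of acetylation grew. It was 0.311% (2 of 643) where H3K27ac was higher in Ebf1-KO, 3.67% at ratios from -1 to 0, 11.9% from -2 to -1, 20.5% from -3 to -2 and 25.0% (33 of 132) at -3 or below. For PolII the share went from 1.55% (16 of 1029) above 0 to 23.2% (59 of 254) at -3 or below. H3K4me2 had no such order at its upper end, with 5.31% above 0 and 4.25% from -1 to 0. Even where both H3K27ac and PolII were at least 2-fold lower, 171 of 913 regions (18.7%) gained H3K27me3 and 742 did not. Elsewhere 102 of 2725 regions (3.74%) gained it.

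Deep losses and high H3K27me3 did not always go together. An intron of Alpl, the tissue-nonspecific alkaline phosphatase, held 103 tags of H3K27ac in Wt and 3.33 in Ebf1-KO, and 141 and 5.47 of PolII, at chr4:137788264-137789248. That was 31.0-fold less H3K27ac (95% interval 16.1 to 68.7), beside a gain of H3K27me3 from 0.43 to 7.96 tags. A second region of Alpl, at chr4:137795551-137796576, holds a CpG-rich RefSeq start of the gene. It reached 34.8 tags of H3K27me3 with 23.8 and 2.96 tags of H3K27ac. Near Asb2, an ubiquitin ligase subunit, H3K27ac was 39.7 and 2.04 tags and PolII 104 and 2.39, with 1.79 and 19.9 tags of H3K27me3. The Crhbp region stood out for H3K4me2, at 109 tags in Wt and 1.44 in Ebf1-KO. In Cplx2, which encodes a complexin of vesicle release, H3K4me3 was 221 and 5.05 tags.

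Promoters were over-represented. Of the 273 regions, 73 (26.7%, Wilson 95% interval 21.8 to 32.3) were in the authors' promoter class, against 15.97% of all regions. The median distance to the nearest start was 0.841 kb against 5.71 kb, and 54.2% lay within 1 kb of a start against 28.9%. Of promoters open in Wt only, 14 of 69 (20.3%, 12.5 to 31.2) gained H3K27me3, compared with 59 of 512 promoters open in both genotypes (11.5%, 9.04 to 14.6). Outside the authors' promoter class the shares were 62 of 748 (8.29%) and 138 of 2309 (5.98%).

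H3K4me2 differed more between promoters and other gaining regions than H3K27ac and PolII did. The median H3K4me2 ratio was -0.05 in the 73 gaining regions of the authors' promoter class (-0.80 to 0.30). It was -1.69 in the 200 other gaining regions (-2.0 to -1.22). Those 200 include regions with a RefSeq start inside that the authors' class leaves out, such as those of Foxo1, Hes5 and Kirrel. For H3K27ac the medians were -1.41 and -1.79, for PolII -1.59 and -1.94, and for H3K4me3 -0.92 and -1.35. Promoters that did not gain H3K27me3 had a median H3K4me2 ratio of 0.45 and a median H3K4me3 ratio of 0.49, so gaining promoters were lower than these in both.

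H3K4me2 also differed with CpG content. RefSeq promoter windows, from 250 bases before to 50 after a start, were available for 103 gaining regions, and those with at least 4 CpG per 100 bases were called CpG-rich. Among windows starting in a gaining region, 91 of 123 (74.0%) were CpG-rich, against 66.2% in other regions and 39.6% of all 32851 windows in the table. In the 75 gaining regions with a CpG-rich start the median H3K4me2 ratio was 0.38, with 13 at least 2-fold lower and 15 at least 2-fold higher. Of all 482 regions with a CpG-rich start, 21 were lower and 76 higher, and the 407 that did not gain H3K27me3 had a median of 0.62, so higher H3K4me2 was not particular to the gaining ones. In the 75, the median H3K27ac ratio was -1.22 and the median PolII ratio -1.60. The gain itself had a median log2 ratio of 2.64 (2.14 to 3.00) in the 75 and 2.21 (1.89 to 2.52) in the 28 with a CpG-poor start. In these 28 the median H3K4me2 ratio was -0.59, and PolII stood at -2.11. Where H3K27ac and PolII were both at least 2-fold lower, 40 of 69 regions with a CpG-rich start gained H3K27me3 (58.0%, 46.2 to 68.9). The share was 16 of 58 with a CpG-poor start (27.6%, 17.8 to 40.2) and 115 of 786 with no start inside (14.6%, 12.3 to 17.3).

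**Figure D3:**
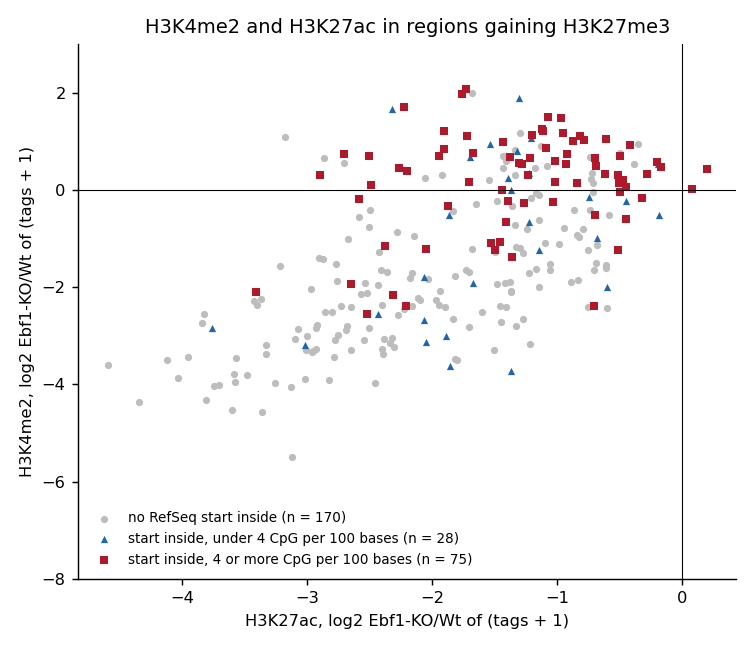
Log2 Ebf1-KO over Wt ratio (value plus 1) of H3K27ac (horizontal) and H3K4me2 (vertical) for each of the 273 gaining regions: 75 with a CpG-rich RefSeq start (squares), 28 with a CpG-poor start (triangles) and 170 without a start (circles). Nearly all points lie left of 0, and many squares lie above 0 on the vertical axis; 15 of these 75 are at least 2-fold up, as are 76 of all 482 regions with a CpG-rich start.

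Foxo1, a forkhead factor needed for interleukin-7 receptor and Rag expression, had more H3K4me2 with less H3K27ac and PolII. Its first exon and CpG-rich promoter, chr3:52267610-52270385, held 1.58 tags of H3K27me3 in Wt and 36.7 in Ebf1-KO (32.5 to 41.1). H3K4me2 was 4.23-fold higher beside it (3.73 to 4.80), from 74.1 to 313 tags, while H3K4me3 stayed high at 514 and 366. H3K27ac was 3.52-fold lower (2.32 to 5.50) and PolII 2.36-fold lower (1.72 to 3.26). Hes5, a repressor induced by Notch, had 1.58 and 32.1 tags of H3K27me3 and 121 and 265 of H3K4me2, with PolII down 3.48-fold (2.44 to 5.05). Myh10 had 70.0 and 127 tags of H3K4me2 against 40.6 and 7.52 of PolII. These 3 regions thus carried more H3K4me2 and more H3K27me3 in Ebf1-KO than in Wt, with less H3K27ac and PolII. The Foxo1, Hes5 and Myh10 windows held 10.3, 13.7 and 6.0 CpG per 100 bases.

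The CpG-poor promoter of Il5ra, the interleukin-5 receptor subunit, lost all 4. It held 52.5 tags of H3K27ac in Wt and 2.96 in Ebf1-KO, 57.4 and 3.76 of PolII and 25.0 and 2.64 of H3K4me2, and its H3K27me3 went from 0.21 to 6.79. Trem1, a myeloid receptor, lost 20.6 to 1.67 tags of H3K27ac and 25.5 to 1.92 of H3K4me2, with H3K27me3 just past the threshold. Their windows held 1.33 and 1.00 CpG per 100 bases.

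H3K4me3 was not 2-fold lower in 120 of the 273 gaining regions (44.0%), against 74.9% of all regions. In Dennd3, H3K4me3 was 115 tags in Wt and 348 in Ebf1-KO, with 0.57 and 8.86 tags of H3K27me3. Pclo, a presynaptic scaffold gene, had 15.9 and 104 tags of H3K4me3 and 10.2 and 27.6 of H3K27me3. PolII was not raised with them, at 28.5 and 27.4 tags in Dennd3 and 5.85 and 2.39 in Pclo.

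Ebf1 binding in the Abelson line was more frequent among gaining regions. Of the 273, 146 (53.5%, 47.6 to 59.3) overlapped an Ebf1-bound region of the deposited tables, against 32.8% of all and 31.1% of other regions. Of 1192 Ebf1-bound regions, 12.2% gained H3K27me3 (10.5 to 14.2), and of 2446 without Ebf1 5.19% did (4.38 to 6.14). The share was 14.9% for Ebf1-bound regions open in Wt only and 11.5% for those open in both. With a Pax5 peak as well it was 13.6%, and with Ebf1 alone 10.7%. The remaining 127 gaining regions had no Ebf1 peak. Among them were the promoter regions of Pax5 and Ikzf3 and those at the starts of Foxo1 and Kirrel.

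The letters TCCC and GGGA with any 2 bases between them, a palindrome at the core of the known Ebf1 motif and so the same on both strands, were searched in the promoter windows. They occurred in 2 of 123 windows starting in gaining regions (1.63%), in 1.82% of windows in other regions and in 0.904% of all windows. The 2 matches, with 10 bases on each side and the match in capitals, lay 87 bases before the start of Sdc4, in an Ebf1-bound region, and 92 bases before that of Foxo1, in a region without an Ebf1 peak.
Sdc4: gcctaagcttTCCCGGGGGAattccgggcg
Foxo1: tactgccgccTCCCGAGGGAaggcagcgcc
Distal regions could not be searched because only promoter windows were given.

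Gaining regions with Ebf1 lost more than those without. The median H3K4me2 ratio was -1.94 in the 146 Ebf1-bound and -0.65 in the 127 other gaining regions. For H3K27ac the medians were -1.90 and -1.37, for PolII -2.16 and -1.62, and for H3K4me3 -1.51 and -0.95. Ebf1-bound regions that did not gain H3K27me3 had medians of -0.50, -0.91, -0.97 and -0.12 for H3K4me2, H3K27ac, PolII and H3K4me3. Regions without Ebf1 that did not gain it had -0.01, -0.50, -0.45 and 0.20 in the same order. Lower ratios at Ebf1-bound regions were thus not particular to the gaining ones.

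BRG1 and EP300 were measured at Ebf1-bound regions only, of which 145 overlapped gaining regions. Median BRG1 was 15.3 tags in Wt and 5.03 in Ebf1-KO, with a median ratio of -1.31 (-1.49 to -1.12) against -0.29 in all 1172 Ebf1-bound regions. At least 2-fold lower BRG1 was seen in 63.4% against 32.4%. Median EP300 was 12.2 and 4.39 tags, with a median ratio of -1.39 (-1.73 to -0.89) against -0.56, and 55.2% were lower against 36.9%. With TMM scaling the medians were -1.04 and -0.89, with all regions at 0.00 and -0.02. At the Lef1 upstream region BRG1 was 36.1 and 4.82 tags and EP300 60.4 and 9.56. At a RefSeq start of Gpm6a, a neuronal membrane glycoprotein gene, BRG1 went from 21.2 to 0.21 tags, and PolII from 35.1 to 0.34. H3K27me3 there went from 3.51 to 40.8. Hes5 was an exception, with 15.3 and 20.6 tags of BRG1.

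Among other factors mapped in Wt cells, peaks of Fli1, an ETS factor, overlapped 57.9% of gaining and 47.6% of all regions, and peaks of Ikzf1 (Ikaros) 19.8% and 15.5%. When at least 50% of the region had to be covered, the order for Fli1 turned, to 7.69% and 11.2%, and Ikzf1 peaks covered 0 gaining regions against 0.522% of all. A 1-base rule favours longer regions and a 50% rule shorter ones. Gaining regions were longer, with a median of 1028 against 729 bases in the others. Shares at matched length were not computed. Every one of the 3638 regions was accessible in the Abelson line. Anchors of its H3K4me3 contacts covered 89.4% of gaining and 89.0% of all regions, with a median of 4 contacts for both.

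The gaining regions were also less accessible in E2A-KO than in Wt cells. Median ATAC signal was 33.0 tags in Wt and 9.68 in E2A-KO, and in the other regions 18.2 and 8.28. Gaining regions thus started higher in Wt and did not end lower than the others. The median ratio was -1.38 (-1.49 to -1.26) against -0.95 in all regions, and 71.1% were at least 2-fold lower against 47.5%. With TMM these were -0.55 against -0.12 and 28.9% against 19.3%, so much of the unscaled drop was shared by the whole table. None of the 273 was at least 2-fold higher, against 0.522% of all. The Il5ra promoter had 144 tags in Wt and 2.56 in E2A-KO, a 56.0-fold difference (36.9 to 89.5), and the strongest Alpl intron 172 and 5.36. The Foxo1 first exon differed only 1.54-fold (1.40 to 1.70), and Bok 1.24-fold (1.05 to 1.47). In regions open in Wt only, gaining and other regions had like medians, -1.65 and -1.56; in regions open in both they were -1.33 and -0.80. H3K27me3 in E2A-KO cells was not analysed here.

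Activation of Ebf1ER in Ebf1-KO cells was followed at the 145 Ebf1-bound regions. Their median accessibility was 6.98 tags at 0 h, 9.22 at 6 h, 12.3 at 24 h and 12.1 at 72 h, and in all 1172 Ebf1-bound regions it was 9.09, 12.4, 15.2 and 16.4. The median 72 h over 0 h ratio was 0.43 (0.35 to 0.52) against 0.50. At least 2-fold higher accessibility was reached at 6 h by 8 regions (5.52%) against 5.97% of all, at 24 h by 23 (15.9%) against 16.1%, and at 72 h by 26 (17.9%) against 18.2%, shares near the background. With TMM scaling the medians at 72 h were -0.073 in gaining and -0.056 in all regions, but that scaling centres these regions near 0 by construction and cannot show whether a general rise was present. Which of them lost H3K27me3 during the course was not measured.

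Levels in the course differed mainly with the class of the region. The 107 gaining regions open in both genotypes went from a median of 11 to 20.2 tags, and other such regions from 14.4 to 23.3. The 38 gaining regions open in Wt only went from 2.96 to 4.03, and other such regions from 2.96 to 4.90. In these regions open in Wt only, the median ratio at 24 h was 0.10 (-0.25 to 0.36) against 0.51 (0.42 to 0.57). At 72 h it was 0.21 (0.02 to 0.50) against 0.57 (0.41 to 0.69), or -0.22 against 0.09 with TMM scaling. These ratios rest on few tags per region.

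**Figure D4:**
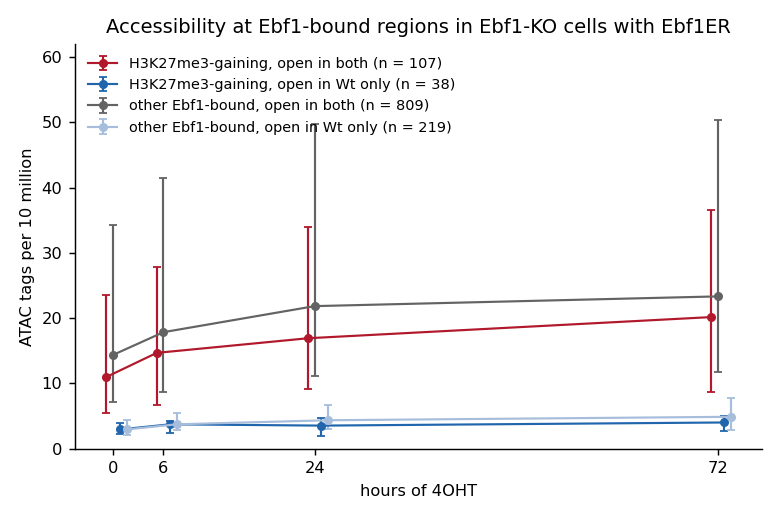
Median ATAC signal (tags per 10000000) with quartiles at each time of 4OHT (0, 6, 24 and 72 h) in Ebf1ER-carrying Ebf1-KO cells, for Ebf1-bound regions that gained H3K27me3 (107 open in both genotypes, 38 open in Wt only) and other Ebf1-bound regions. Regions open in Wt only stay near the bottom in both sets, reaching medians of 4.03 and 4.90 at 72 h.

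Single regions did open. The promoter of Apbb1, an adaptor that binds the amyloid precursor protein, had 8.25 tags at 0 h, 27.9 at 6 h, 55.2 at 24 h and 60.8 at 72 h, a 7.37-fold rise (5.22 to 10.7). The Asb2 region had 8.25, 14.7, 42.6 and 51.6 tags, or 6.25-fold (4.4 to 9.09). Matn4, a matrilin gene, had 5.71, 10.9, 16.9 and 26.8 tags. The Lef1 upstream region hardly moved, with 15.9, 22.5, 16.9 and 20.5 tags and a ratio whose interval includes 1 (0.919 to 1.81). Il5ra had 5.50, 6.05, 3.28 and 3.17 tags.

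When neighbours within 100 kb were joined, the 273 regions formed 178 loci, and 56 loci with at least 2 held 151 of them. Of the 200 nearest genes, 148 had 1 gaining region, 36 had 2, 12 had 3, 3 had 4 and Lef1 had 5. At 24 of 94 genes whose regions all gained H3K27me3 there was more than 1 region. How many loci other regions would form was not computed. Regions of a locus share their surroundings and are not independent.

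The 5 gaining regions of Lef1 lay together, from 3.4 kb before to 7.6 kb after the start, among 11 regions of the gene. Upstream of them, regions at 90.8, 55.7 and 53.0 kb before the start had 0.91, 2.72 and 0.91 tags of H3K27me3 in Ebf1-KO, against 0.50, 0.57 and 0.29 in Wt. Downstream, regions 29.4, 47.4 and 66.1 kb after the start went from 2.51 to 9.12, from 2.51 to 4.01 and from 0.14 to 3.75 tags without meeting the rule. The 3 upstream regions had lost PolII, from 55.8 to 4.45, from 132 to 2.74 and from 40.2 to 8.55 tags. H3K4me2 rose at the downstream promoter, from 16.03 to 53.0 tags, beside 31.4 tags of H3K27me3, and fell at the upstream region, from 180 to 48.4.

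Pax5 encodes the factor that holds cells in the B lineage. Of 7 regions from 1.4 kb before to 6.2 kb after its start, 6 gained H3K27me3, among them 3 whose nearest start in the annotation is that of 5730488B01Rik. The promoter, chr4:44710621-44711145, had 0.50 tags in Wt and 22.6 in Ebf1-KO (19.3 to 26.1), with 17.2 and 1.03 of PolII. The remaining region, in intron 1, went from 0.21 to 4.85 tags and missed the threshold. Only the 2 of the 7 that lie 4.6 and 5.3 kb into the gene were Ebf1-bound. At the one 6.2 kb into the gene H3K4me2 rose, from 15.3 to 63.8 tags.

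**Figure D5:**
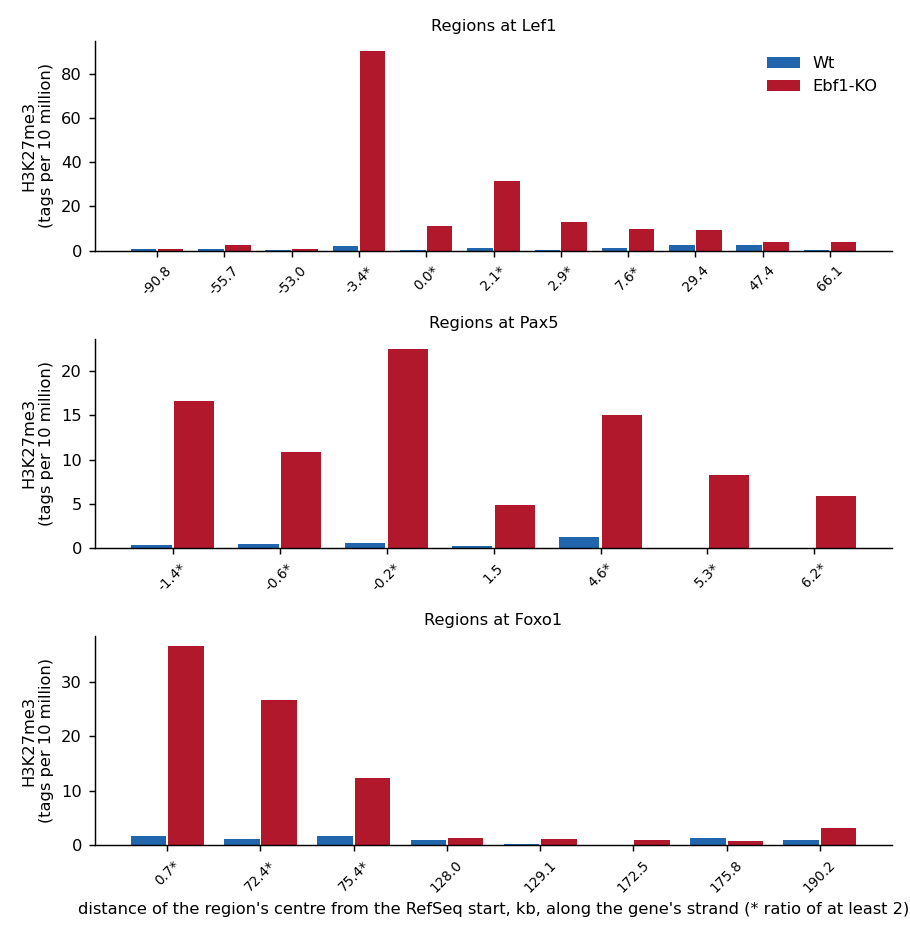
H3K27me3 (tags per 10000000) in Wt (blue) and Ebf1-KO (red) at each measured region of Lef1, Pax5 and Foxo1, ordered by distance from the RefSeq start in kb along the gene's strand, not to scale. Asterisks mark regions that met the ratio of 2; in Lef1 and Pax5 they lie within 7.6 and 6.2 kb of the start, and in Foxo1 2 of the 3 lie 72.4 and 75.4 kb into the gene.

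At Foxo1 the gain covered the first exon and 2 regions in intron 1, which went from 1.15 to 26.8 and from 1.72 to 12.3 tags. The 5 regions 128 to 190 kb downstream of the start reached at most 3.17 tags. These distal regions lost PolII, as at chr3:52443632-52444742, an Ebf1-bound region with 124 and 5.47 tags, H3K27ac of 83.1 and 35.5, and H3K27me3 of 1.29 and 0.78. Further downstream, a region assigned to Gm2447 gained H3K27me3 from 0.14 to 9.51 tags, with EP300 at 69.9 and 0.00. In the Abelson line its 5 kb bin was in contact with that of the Foxo1 first exon, with a contact count of 21.

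The Ikzf3 promoter had 35.1 tags of PolII in Wt and none in Ebf1-KO. Within intron 3 of Ikzf3, a region that the annotation assigns to Grb7 (chr11:98492905-98493888) went from 1.65 to 20.4 tags of H3K27me3, H3K27ac from 63.7 to 2.96, BRG1 from 54.3 to 2.73 and EP300 from 90.5 to 4.39. The Abelson line contact between the 5 kb bins of these regions had a count of 50. In all, 42 of the 1187 listed contacts that touch a gaining region joined 2 of them, at Id3 with a count of 74 and Myh10 with 47 among others. Many of the 42 join neighbours at the same gene, as these do. How many contacts join 2 regions of any kind was not computed, so the 42 have no background to be set against.

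Of 22 listed transcription factors, 14 had a region and 4 had a gaining region (Foxo1, Ikzf3, Lef1 and Pax5). Over all nearest genes, 200 of 1660 had one. Of the 63 regions of the listed factors, 12 (19%) gained H3K27me3, against 7.5% of all. These 12 were clustered, with 5 at Lef1, 3 at Pax5, 3 at Foxo1 and 1 at Ikzf3. Among pre-B-cell receptor and signalling genes, 3 of 16 genes and 3 of 56 regions (5.36%) gained the mark. They included an intron of Blnk, the adaptor under the receptor, with 2.22 and 9.70 tags in Wt and Ebf1-KO. Cr2, complement receptor 2, had 2.22 and 18.3. Prkcb, a protein kinase C, had 1.22 and 14.7 in a region with a RefSeq start inside. Prkcb kept H3K4me2, at 69.5 and 151 tags, while PolII was 47.9-fold lower (18.4 to 178). Among receptors and surface antigens 4 of 11 genes and 4 of 35 regions (11.4%) had a gain, near the share of all regions. Cd24a, a marker of early B cells, went from 1.36 to 31.3 tags, Cd55 from 1.43 to 23.2, Tnfrsf19 from 0.86 to 15.3 and the Il5ra promoter as given above. Of 4 cell cycle and survival genes with a region, Cdkn2c, an inhibitor of cyclin-dependent kinases, had one, with 1.00 and 7.70 tags. The 8 regions of V(D)J recombination genes and the 7 of Ezh2, Pcgf5 and Phf19 held no gain, too few regions to set against 7.5%.

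The promoters of Cd79a, Igll1 and Vpreb1, genes of the receptor or surrogate light chain, lost PolII without gaining H3K27me3. The Cd79a promoter, chr7:24896982-24897767, had 0.43 tags of H3K27me3 in Wt and 0.84 in Ebf1-KO, although H3K27ac was 7.24-fold lower (4.45 to 12.4), PolII 16.8-fold lower (9.14 to 34.3) and H3K4me2 from 35.7 to 1.92 tags. The Igll1 promoter had 0.43 and 0.52 tags of H3K27me3 with 141 and 3.76 of PolII, and the Vpreb1 promoter 0.64 and 0.06 with 53.9 and 3.08. Their windows held 2.67, 0.667 and 0.667 CpG per 100 bases. Cd79a accessibility rose 6.19-fold at 72 h of 4OHT (3.95 to 10.1) and that of Igll1 7.87-fold (4.98 to 13.0), while Vpreb1 stayed at 2.54 and 1.73 tags. At Ebf1 itself, 5 regions had 0.57 to 1.86 tags of H3K27me3 in Wt and 0.00 to 1.75 in Ebf1-KO, and those of Tcf3 did not exceed 1.29. The Ebf1 promoter had 59.9 and 126 tags of H3K4me3; whether any of these regions lies in the deleted part is not given, so they do not check the knockout.

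These promoters also check the labels, since Cd79a, Igll1 and Vpreb1 carried PolII in the Wt columns and little in Ebf1-KO. Other cell types could hardly be checked. Of the lists for T cells, natural killer cells and myeloid cells, 1, 1 and 2 genes had a region, none with a gain, and erythroid, stromal and housekeeping genes had none. What part other cells in the cultures have in the gains was not tested.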

How the data were processed

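Wt and Ebf1-KO chromatin, E2A-KO accessibility and the Ebf1ER course were read from the deposited region tables. Signal values were deposited as HOMER tag numbers per region, brought by the authors to a library size of 10000000, per the file headers, on mm10 (GRCm38). Tools in the submitters' processing notes include HOMER 4.10, Bowtie2 2.3.5 and HiC-Pro 2.11.1. Library totals in the headers ran from 24557525 to 196071042 tags, and value times total gave whole tags (H3K27me3 and H3K27ac in multiples of 0.5) within 0.1 tag in every region. Deposited Fli1 and Ikzf1 lists carry the authors' peak score, which was not used beyond position. The deposited contact list gives the count of each pair of 5 kb bins, per the file headers. Only 3 Wt ATAC samples are labelled, but the header of their column speaks of 6 libraries and a size of 180. 2 ATAC columns without a labelled sample were not used, nor were input and IgG libraries.

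With 1 column per group, neither a count test on the recovered tags nor limma could be run. Log2 ratios used value plus 1. Intervals are 95% exact Poisson (values), exact conditional (folds), Wilson (shares) and order-statistic (medians), from Python 3.11.15, numpy 2.4.6, pandas 2.3.3 and SciPy 1.17.1; scripts were tested on simulated data. TMM came from edgeR 4.0.16 in R 4.3.3, on recovered tags. Overlap needed 1 base; Ebf1-bound windows can differ from those of the mark tables, and 906 of 1192 had the same start and end. The nearest gene is that of the authors' annotation.

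Regions, lists and rules were chosen with earlier results of these data known. The naming rule took the 12 largest ratios, up to 6 genes per list, genes with 4 or more gaining regions, the 4 most changed regions in each direction per contrast among values of at least 20 tags, 4 regions on each side of the threshold, and fixed B-lineage genes. Of the genes so named, 1 is not reported here. Printed promoters, the CpG threshold, Sdc4 and Id3 were chosen after values were seen.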

Additional observations from a re-analysis of the deposited data

How the results depend on the processing

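No paired analysis was possible because each group was a single column without replicate numbers; for the same reason no replicate could be left out. Of 107 alternatives, 59 kept the value within its spread, 47 moved it and 1 turned its direction. The number of gaining regions was 615 with 1 tag added and 142 with 10, and 506 at a ratio of 1.5 and 106 at 3; TMM scaling left 261. With 5 tags added to the log ratios, the medians were -0.95 for H3K4me3, -1.10 for H3K27ac, -1.25 for PolII, -1.45 for PolII at Ebf1-bound regions, -0.90 for BRG1, -0.87 for EP300, -1.12 for E2A-KO accessibility and 0.33 for 72 h of 4OHT, and the shares at least 2-fold lower were 48.7% for H3K4me3, 54.9% for H3K27ac and 61.9% for PolII. With TMM they were -0.99 and 49.8% for H3K27ac, -1.25 and 56.4% for PolII, -1.55 for PolII at Ebf1-bound regions, -1.04 for BRG1, -0.89 for EP300 and -0.55 for E2A-KO, and the 72 h median turned to -0.073. Among regions with at least 10 tags in either genotype they were -2.11 and 86.8% for H3K27ac, -2.28 and 84.3% for PolII, -1.89 for EP300 and 0.61 for 72 h. At ratios of at least 3 they were -1.58 and 67.0% for H3K4me3, -1.92 and 88.7% for H3K27ac, -2.21 and 88.7% for PolII, -2.54 for PolII at Ebf1-bound regions and -1.57 for E2A-KO. With 1 region per gene H3K4me2 was -0.80 and 48.0%. In regions of 500 to 1000 bases it was -2.02 and 68.5%, H3K27ac -2.13 and 89.1%, EP300 -1.99 and 72 h 0.25. Requiring 50% of a region to be covered left Fli1 peaks at 7.69% and Ikzf1 peaks at 0%. The cause of these shifts was not tested. PolII alternatives over all gaining regions, leaving out the genes with most gaining regions, and keeping repeated rows were chosen after seeing the data. Regions of few tags have wide counting intervals.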
